A study of Mus musculus with 44 samples.

Results

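Lgr5 wells are the wells of the day 0 plates whose single sorted cell gave 1 or more UMIs of Lgr5 and fewer than 5 UMIs of Fabp1, among wells with 1000 or more UMIs. A UMI (unique molecular identifier) marks 1 captured mRNA molecule. There were 316 Lgr5 wells among the 826 day 0 wells kept, and 8231 of 8539 deposited wells were kept over all days. The day 0 wells came from 5 of the study's 44 plates. Each plate held viable cells of small intestinal organoids of line26 wild type, Lgr5GFPDTR/+, a line from a female mouse with GFP and the diphtheria toxin receptor knocked into 1 allele of Lgr5. Before RANKL the protocol for M cell enrichment kept organoids for 3 days in ENR medium (EGF, noggin and R-spondin1) with 3 µM of the GSK3 inhibitor CHIR99021 and 1.5 mM of the histone deacetylase inhibitor valproic acid, and then for 1 day in ENR alone. The labels do not say whether the day 0 cells were taken after these steps, nor whether transcripts of the knock-in allele count among the Lgr5 UMIs. The RANKL group had 3 day 0 plates and was to receive 100 ng/mL RANKL. The RANKL+CSRM617 group had 2 day 0 plates and was to receive the same RANKL with 40 µM CSRM617, an inhibitor of the transcription factor ONECUT2. Day 0 is the time point before either agent, so the groups are called arms here, and an arm is only a label at this time. The comparisons ask how Lgr5 wells differed from the other wells of the same plates before M cell induction began, and whether the Lgr5 wells of the arms were alike.

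Lgr5 is a receptor for R-spondins and marks the crypt base columnar stem cells of the small intestine. These cells lie between Paneth cells, are kept by Wnt, Notch and EGF signals, and divide to give progenitors that become absorptive enterocytes or secretory cells. RANKL acts through its receptor RANK, encoded by Tnfrsf11a, to turn dividing crypt cells into M cells, which carry luminal antigen across the epithelium. Fabp1, a fatty acid binding protein, is abundant in enterocytes and served in the rule to set aside wells with much enterocyte RNA.

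Lgr5 wells made up 96 of 229 wells (41.9%) on RANKL plate 1, 12 of 26 (46.2%) on RANKL plate 2 and 89 of 226 (39.4%) on RANKL plate 3. They made up 69 of 179 (38.5%) on CSRM617 plate 1 and 50 of 166 (30.1%) on CSRM617 plate 2. The exact 95% binomial intervals ran from 23.3% to 66.6% over the 5 plates and all overlapped. When each well was thinned to 1000 UMIs, the shares were 18.3%, 15.4%, 17.3%, 19.6% and 12.7% in the same order. Of the Lgr5 wells, 39.6% in the RANKL arm and 47.1% in the CSRM617 arm still held an Lgr5 UMI at that depth. The median depth of Lgr5 wells was 4847 UMIs in the RANKL arm and 2920 UMIs in the CSRM617 arm, against 5079.5 and 2613 UMIs in the other wells. The kept wells of a plate summed to between 155940 UMIs on RANKL plate 2 and 1201893 UMIs on RANKL plate 3. Of the well barcodes kept, between 7 and 134 recurred in any pair of these plates. The labels name no separate culture or animal for a plate, so the spread behind the p-values can be technical. Within plates it is how far the class difference varied from plate to plate, and between arms how far plates varied. The tests also draw each gene's spread toward that of other genes. With 2 plates, the CSRM617 arm alone leans on this most, and its small p-values are no measure of agreement between many plates.

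The wells were chosen by their Lgr5 and Fabp1 UMIs, which are given as a description. Among wells with fewer than 5 Fabp1 UMIs, the RANKL arm had 176 with no Lgr5 UMI, 95 with 1, 48 with 2 and 30 with 3, up to a well with 9. The CSRM617 arm had 175 with none, 58 with 1, 36 with 2 and 16 with 3, up to a well with 8. Fabp1 was at 0 in 146 of 197 and 110 of 119 Lgr5 wells, and 26 and 10 wells had Lgr5 together with 5 or more Fabp1 UMIs and were left out. Just inside that bound 3 and 2 wells had 4 Fabp1 UMIs, and just outside it 4 and 0 wells had 5. Lgr5 UMIs were also seen in 24.1% (95% interval 16.4% to 33.3%) and 19.6% (9.82% to 33.1%) of the wells with 5 or more Fabp1 UMIs, a population that should be low in Lgr5, at median depths of 6238.5 and 3460 UMIs. The wells with fewer than 5 Fabp1 UMIs had Lgr5 in 52.8% (47.6% to 58.0%) and 40.5% (34.8% to 46.3%) at 4688 and 2579 UMIs. After thinning to 1000 UMIs these shares were 7.41% and 3.92% against 20.9% and 19.05%. Wells without an Lgr5 UMI are wells in which it was not detected at their depth.

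**Figure D1:**
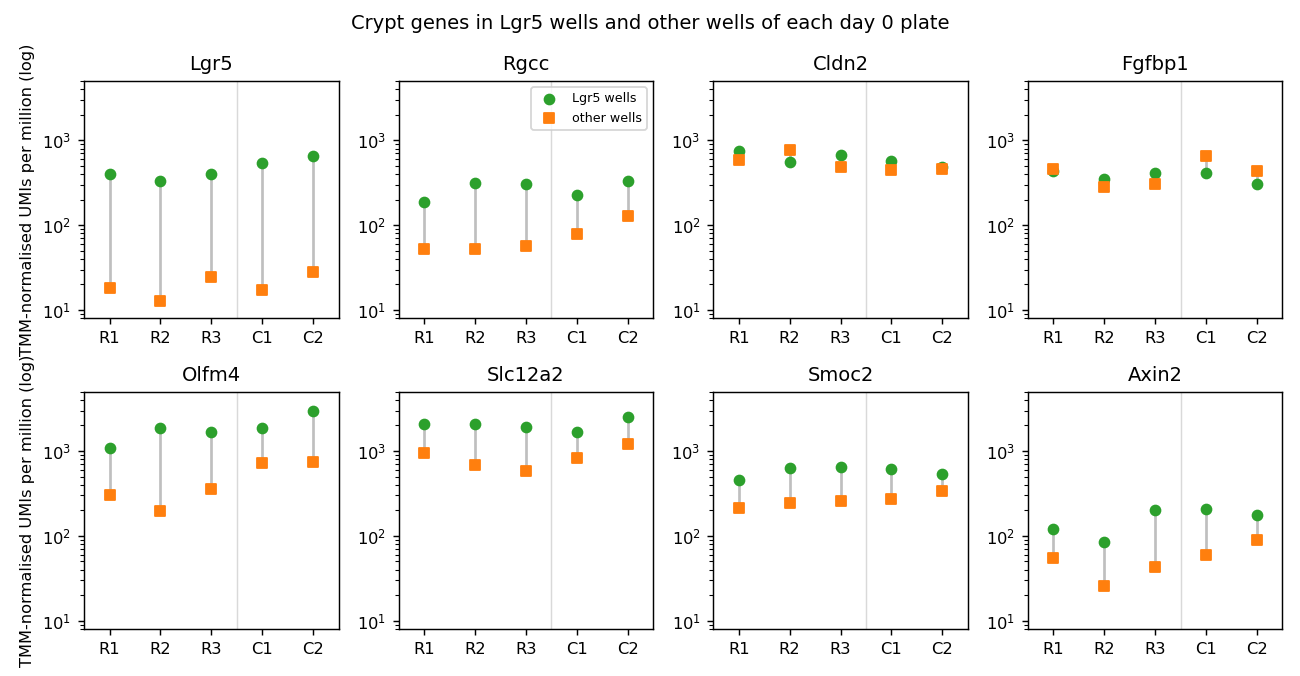
Levels of 8 crypt genes in Lgr5 wells (circles) and the other wells (squares) of each day 0 plate, as TMM-normalised CPM on a log axis, with the RANKL plates R1 to R3 left of the line and the CSRM617 plates C1 and C2 right of it. Lgr5, by which the wells were chosen, and Rgcc lie apart in all 5 plates, and Cldn2 and Fgfbp1 do not. Olfm4, Slc12a2, Smoc2 and Axin2, which the rule did not use, lie higher in the Lgr5 wells of all 5 plates.

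Of the 4 genes proposed as markers of these cells, Lgr5 chose the wells, so its higher level in them was set by the rule. Of the rest, Rgcc was higher in the Lgr5 wells of all 5 plates, and Cldn2 and Fgfbp1 were not. Levels are given per plate as CPM (UMIs of the gene scaled to the total of the summed wells) after TMM, a scaling of library sizes, with the 3 RANKL plates before the 2 CSRM617 plates. Lgr5 (chromosome 10, 115450311 to 115587780, minus strand, GRCm38) stood at 397, 336, 396, 538 and 647 in Lgr5 wells and at 18.3, 12.9, 24.2, 17.1 and 28.2 in the other wells. Rgcc, a regulator of the cell cycle, stood at 189, 312, 302, 224 and 332 against 51.9, 51.7, 56.1, 79.7 and 129. The groups did not overlap for either gene. Cldn2, which forms cation pores in the tight junctions of crypts, stood at 748, 552, 668, 575 and 481 against 580.4, 762, 491, 444 and 459.6, with RANKL plate 2 in the opposite order. Fgfbp1, a carrier of fibroblast growth factors, stood at 441, 348, 412, 411 and 307 against 455, 284, 302, 646 and 431 and was lower in the Lgr5 wells of RANKL plate 1 and both CSRM617 plates. The wells are therefore named by their rule, as Lgr5 wells, and these 4 genes and Fabp1 enter no test or count.

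UMIs were summed per plate for the Lgr5 wells and for the other wells, and the sums were compared within plates with edgeR's quasi-likelihood test and Benjamini-Hochberg adjustment over all genes tested. Over the 5 plates, 2030 of 6494 genes tested (31.3%) passed an adjusted p of 0.05, with 939 (14.5%) higher and 1091 (16.8%) lower in Lgr5 wells. DESeq2 called 1196 genes, and edgeR 1215 without RANKL plate 1, 1163 without RANKL plate 3 and 575 with every well thinned to 1000 UMIs. Because Lgr5 and Fabp1 of these same wells set the classes, genes that vary with either across cells differ by construction, and the counts describe what came with the rule. The median log2 difference of all genes tested was 0.03. Each list below is to be read beside these.

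The crypt stem cell list had 13 of 14 tested genes higher in Lgr5 wells, with none lower and a median log2 difference of 1.30. Olfm4, a secreted glycoprotein of crypt base cells (chromosome 14, 79984081 to 80023139, plus strand), stood at 1091, 1859.7, 1672, 1871 and 2961 in Lgr5 wells against 304, 194, 355, 731 and 734 in the other wells. Every Lgr5 value lay above every other value, and the log2 difference was 1.97 ± 0.13 (SE, edgeR adjusted p = 4.05e-15). Slc12a2, the basolateral sodium, potassium and chloride cotransporter, stood at 2056, 2088, 1939, 1658 and 2513 against 939, 685, 576, 822 and 1197, again without overlap (1.29 ± 0.10, adjusted p = 1.64e-12). Smoc2, a matricellular protein of crypt base cells, stood at 455, 624, 646, 616 and 539 against 211, 245, 258, 273 and 339 and differed by 1.13 ± 0.12 (adjusted p = 2.06e-09). Ascl2, the transcription factor that sets the stem cell programme, was sparse and stood at 29.9, 84, 56, 56 and 24.9 against 15.3, 0, 7.58, 14.2 and 16.1. Its lowest Lgr5 value, on CSRM617 plate 2, was still above every other value (1.87 ± 0.40, adjusted p = 4.01e-04). Cdca7, a Myc-responsive chromatin factor, was higher by 1.66 ± 0.17 (adjusted p = 4.21e-10) and the RNA-binding protein gene Msi1 by 1.57 ± 0.35 (adjusted p = 6.82e-04). Prom1, which is expressed through the crypt and not in its base alone, was the listed gene that did not pass (0.25 ± 0.19, adjusted p = 0.333), except when wells were thinned before summing (0.88, adjusted p = 0.0487). Hopx, associated with slow-cycling crypt cells, was higher by 0.61 ± 0.13 (adjusted p = 3.63e-04), a call lost when each well was thinned to 1000 UMIs, before summing or in the rule. Clu, which marks revival stem cells after injury, gave 2 UMIs in the Lgr5 wells of the RANKL arm and 1 in those of the CSRM617 arm.

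Of the Wnt targets and feedback genes, 8 of 11 tested were higher and none lower, with a median of 0.82. Axin2, a scaffold of the β-catenin destruction complex and a direct Wnt target, stood at 122, 84, 203, 209 and 174 in Lgr5 wells against 55, 25.8, 42.4, 59.8 and 88.7. The groups overlapped by 1 value, since Lgr5 wells of RANKL plate 2 were below the other wells of CSRM617 plate 2, but Lgr5 wells were higher within all 5 plates (1.61 ± 0.20, adjusted p = 3.67e-08). Sox9, a transcription factor of crypt progenitors and Paneth cells, was higher by 1.25 ± 0.14 (adjusted p = 6.61e-09), and Cd44, a hyaluronan receptor of crypt cells, by 1.22 ± 0.17 (adjusted p = 3.02e-07). Rnf43, a ubiquitin ligase that removes Wnt receptors, was higher by 1.22 ± 0.35 (adjusted p = 0.00642), a call that did not hold without RANKL plate 1 or without RANKL plate 3. Ephb2, a guidance receptor of the crypt, missed the threshold at 0.36 ± 0.15 (adjusted p = 0.0626) and passed only without the most abundant gene (0.41, adjusted p = 0.0366). Outside the lists, the Hedgehog signal transducer Smo was higher by 1.90 ± 0.37 (adjusted p = 1.05e-04) and the carbonic anhydrase gene Car12 by 1.72 ± 0.32 (adjusted p = 5.22e-05). Neither of these calls held when the rule was applied to thinned counts.

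Every tested gene of both cell cycle lists was higher in Lgr5 wells, 15 of 15 S phase genes with a median of 1.55 and 15 of 15 G2/M genes with a median of 1.23. The S phase genes include the MCM helicase subunits, which license and open replication origins and whose promoters are known to carry E2F sites. The promoters of Mcm5, Mcm6 and Mcm7 are shown because E2F-type letters were found in them. They are the 250 bases before the annotated start, from RefSeq on GRCm38.p6, printed 5′ to 3′ on the gene's strand, with matches to TTTGGCGC or TTTCCCGC on either strand in capitals.
Mcm5, chr8:75109259-75109508, plus strand: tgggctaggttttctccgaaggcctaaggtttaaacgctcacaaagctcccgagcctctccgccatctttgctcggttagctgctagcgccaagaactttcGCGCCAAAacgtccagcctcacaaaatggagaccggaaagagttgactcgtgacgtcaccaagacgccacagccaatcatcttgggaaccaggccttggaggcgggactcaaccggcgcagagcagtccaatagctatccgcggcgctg
Mcm6, chr1:128359706-128359955, minus strand: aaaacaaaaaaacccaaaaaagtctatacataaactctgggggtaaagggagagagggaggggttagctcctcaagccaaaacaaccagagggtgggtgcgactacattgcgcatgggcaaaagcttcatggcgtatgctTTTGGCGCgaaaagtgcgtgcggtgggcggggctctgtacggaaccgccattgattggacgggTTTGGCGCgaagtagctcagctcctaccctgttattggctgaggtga
Mcm7, chr5:138171884-138172133, minus strand: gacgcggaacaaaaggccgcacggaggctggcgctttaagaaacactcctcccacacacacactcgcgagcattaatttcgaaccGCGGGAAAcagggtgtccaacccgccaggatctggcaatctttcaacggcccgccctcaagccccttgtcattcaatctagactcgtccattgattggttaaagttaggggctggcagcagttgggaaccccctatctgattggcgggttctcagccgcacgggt
The match nearest to the start lay 149 bases before it in Mcm5, 47 in Mcm6 and 165 in Mcm7. Such a match was present in 4 of the 14 S phase genes with a promoter in the table (of 16 listed), the fourth being Hells, and in 1.51% of all 27025 gene symbols there. None of 14 G2/M promoters held one, and only 12 of the 18 crypt stem cell genes had a promoter there, 2 of them with a match. A match is a description of letters.

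Mcm5 stood at 138, 144, 185, 187 and 182 in Lgr5 wells against 45.8, 38.8, 45.5, 62.6 and 48.4 in the other wells, with no overlap (1.77 ± 0.19, adjusted p = 1.45e-09). Mcm6 was higher by 1.59 ± 0.17 (adjusted p = 3.36e-09) and Mcm7 by 1.56 ± 0.21 (adjusted p = 2.45e-07). Clspn, which signals stalled replication forks, was higher by 1.99 ± 0.29 (adjusted p = 1.22e-06) and Uhrf1, which carries DNA methylation through replication, by 1.78 ± 0.24 (adjusted p = 1.97e-07). Pcna, the replication clamp, had a high level in all wells and a smaller difference: it stood at 995, 1416, 1329, 1244 and 1269 against 605, 891, 825, 629 and 871 (0.73 ± 0.10, adjusted p = 1.96e-07). The calls of Clspn and Pcna were lost with the rule on thinned counts. Of the G2/M genes, Mki67 stood at 229, 156, 248, 325 and 415 against 79.4, 77.5, 80.3, 82.5 and 282, and the other wells of CSRM617 plate 2 were above the Lgr5 wells of 3 plates (1.39 ± 0.17, adjusted p = 2.02e-08). The mitotic kinase genes Cdk1 and Plk1 were higher by 1.32 ± 0.17 (adjusted p = 6.35e-08) and 1.32 ± 0.21 (adjusted p = 6.13e-06).

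**Figure D2:**
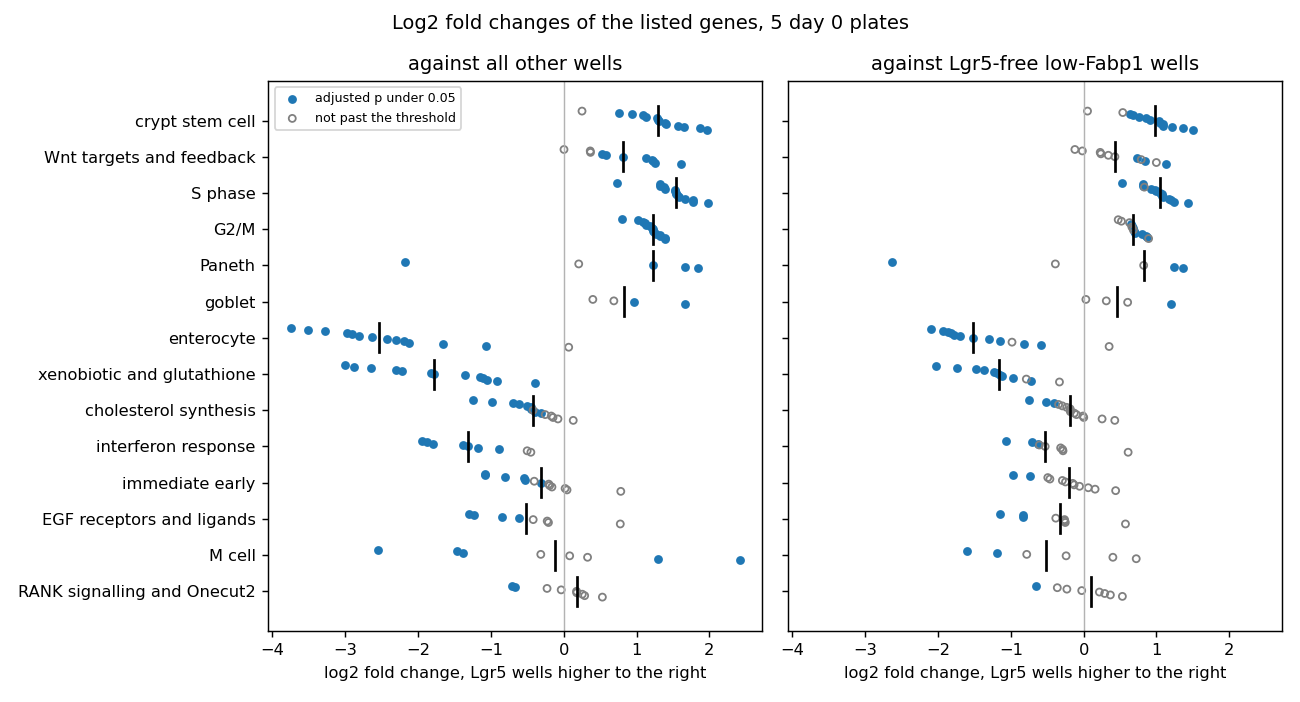
Log2 difference of each tested gene of 14 lists between Lgr5 wells and all other wells (left) and between Lgr5 wells and wells with no Lgr5 and fewer than 5 Fabp1 UMIs (right), from the 5 day 0 plates; filled points passed an edgeR adjusted p of 0.05, open points did not, and a bar marks the list's median. The stem cell, S phase and G2/M medians lie at 1.30, 1.55 and 1.23 on the left and at 0.97, 1.04 and 0.68 on the right, and the enterocyte median at -2.53 and -1.52.

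Enterocyte genes were lower in Lgr5 wells in 13 of 14 tested cases, with none higher and a median of -2.53, in wells that were chosen for low Fabp1. Sis, the brush border sucrase-isomaltase, stood at 692, 636, 558, 44.8 and 82.9 in Lgr5 wells against 4417, 3849, 4212, 1047 and 919 in the other wells. The groups did not overlap, and the log2 difference was -2.98 ± 0.14 (adjusted p = 8.61e-19). Alpi, intestinal alkaline phosphatase, stood at 178, 180, 278, 29.9 and 41.5 against 1317, 891, 1594, 543 and 282 (-2.81 ± 0.15, adjusted p = 4.35e-17). The lipid carriers Fabp2 and Apoa1 were lower at -2.31 ± 0.15 (adjusted p = 4.25e-15) and -3.51 ± 0.19 (adjusted p = 3.54e-17). Sis and Alpi were still detected in Lgr5 wells of every plate. Alpi UMIs came from 69 of 197 Lgr5 wells in the RANKL arm and 12 of 119 in the CSRM617 arm, and the 5 highest wells held 28.3% and 46.2% of them. All 13 tested genes of xenobiotic and glutathione metabolism were lower, with a median of -1.77. Among them were the glutathione transferase genes Gsta1 at -3.00 ± 0.16 (adjusted p = 3.48e-17) and Gstm3 at -2.88 ± 0.15 (adjusted p = 2.32e-17), and the retinaldehyde dehydrogenase gene Aldh1a1 at -2.64 ± 0.13 (adjusted p = 1.96e-17). Outside the lists, the lectin gene Reg1 was lower at -3.23 ± 0.19 (adjusted p = 6.82e-16) and the cytochrome P450 gene Cyp2b10 by -3.36 ± 0.20 (adjusted p = 1.12e-15). Gda, guanine deaminase, gave 0 UMIs in the Lgr5 wells of the CSRM617 arm and of RANKL plate 2, and its other-well levels were 50.4, 64.6, 59.1, 59.8 and 60.5. Among genes that only the RANKL table lists, Prap1, a secreted protein of the intestinal epithelium, was lower at -2.32 ± 0.31 (adjusted p = 4.57e-07) and the lipid droplet gene Plin2 by -1.93 ± 0.24 (adjusted p = 1.11e-07), lost when wells were thinned before summing. Knstrn, a spindle protein gene, was higher there by 1.56 ± 0.32 (adjusted p = 3.23e-04), a call lost with the rule on thinned counts and without RANKL plate 3.

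Cholesterol synthesis genes were lower in 9 of 15 cases, with none higher and a median of -0.42. Insig1, which holds back the sterol-sensing transcription factors, was lower at -1.24 ± 0.11 (adjusted p = 5.95e-11) and Hmgcs1, a synthase early in the pathway, by -0.69 ± 0.10 (adjusted p = 2.24e-06), lost when wells were thinned before summing. All 4 tested claudins other than Cldn2 were lower over both arms (median -0.92), but none of 3 was called in the CSRM617 arm alone. Cldn3, a sealing claudin, differed by -0.99 ± 0.19 (adjusted p = 7.85e-05), a call lost with the rule on thinned counts. Cldn15, which like Cldn2 forms cation pores, differed by -0.85 ± 0.16 (adjusted p = 9.81e-05) and the sparse Cldn23 by -1.53 ± 0.44 (adjusted p = 0.0072). Cldn7 differed least, by -0.37 ± 0.12 (adjusted p = 0.0142), and its call was lost in 5 of 17 alternatives. Of the EGF receptors and ligands, 4 of 8 were lower and none higher, with a median of -0.52. Erbb3, a receptor that pairs with other ERBB receptors, stood at 45.9, 60.0, 73.3, 44.8 and 66.4 in Lgr5 wells against 151, 142, 139, 151 and 92.7, without overlap (-1.29 ± 0.20, adjusted p = 4.21e-06), although thinning before summing ended the call. The ligand genes Areg and Hbegf differed by -1.23 ± 0.21 (adjusted p = 1.48e-05) and -0.85 ± 0.17 (adjusted p = 1.35e-04), the second of which was lost under both ways of thinning. Errfi1, a feedback inhibitor of the receptors, was lower over 5 plates by -0.61 ± 0.22 (adjusted p = 0.0299), a call lost in 7 of 17 alternatives, among them each removal of a RANKL plate; on CSRM617 plate 2 its Lgr5 wells were at 249 against 121 CPM.

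Interferon response genes were lower in 7 of 9 cases over both arms (median -1.31) and in 10 of 12 in the RANKL arm alone (median -1.33), where 30.6% of all genes tested were called. In the RANKL arm the helicase gene Ddx60 was lower at -1.89 ± 0.21 (adjusted p = 1.64e-08) and Ifit1, which binds uncapped viral RNA, by -1.76 ± 0.17 (adjusted p = 6.12e-10). Their levels in the CSRM617 arm were at or near 0 in both classes, with Ddx60 at 0 in the Lgr5 wells of both plates. B2m, the light chain of MHC class I, was lower at -1.02 ± 0.17 (adjusted p = 1.16e-05), and this call was lost under both ways of thinning. Of the immediate early genes 6 of 13 were lower (median -0.32), led by Klf6 at -1.08 ± 0.13 (adjusted p = 2.08e-08). The ER stress list had 4 of 11 lower (median -0.17), led by the co-chaperone gene Dnajb9 at -1.53 ± 0.19 (adjusted p = 2.72e-08), lost with the rule on thinned counts. The epithelial identity list had 1 of 8 genes higher and 3 lower (median -0.07). Its largest fall was in Krt8, a keratin of simple epithelia, at -0.71 ± 0.12 (adjusted p = 3.00e-05).

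Some Paneth and goblet genes were higher in Lgr5 wells, 3 of 5 Paneth genes with 1 lower (median 1.23) and 2 of 4 goblet genes with none lower (median 0.83). Itln1, an intelectin that binds microbial glycans, stood at 899, 996, 629, 339.8 and 481 in Lgr5 wells against 192, 478, 162, 156 and 209.6, higher on every plate with 1 overlap from the other wells of RANKL plate 2 (1.66 ± 0.15, adjusted p = 1.57e-11). It was spread over 111 of 197 and 35 of 119 Lgr5 wells. Lyz1, lysozyme of Paneth granules, stood at 136, 48, 15.1, 288 and 373 against 32.1, 90.4, 4.55, 17.1 and 189 and was lower in the Lgr5 wells of RANKL plate 2 (1.85 ± 0.28, adjusted p = 2.64e-06). Its UMIs came from 18 of 197 and 9 of 119 Lgr5 wells, of which the 5 highest held 83.5% and 96.7%, and its call was lost with the rule on thinned counts. The granule protease gene Mmp7 had the same concentration, 80.5% and 84.6% in 5 wells, with 1.23 ± 0.29 (adjusted p = 0.0014), a call lost under DESeq2 and with 2 or more Lgr5 UMIs, and an opposite sign (-0.61, not called) with the rule on thinned counts. Ang4, an antimicrobial ribonuclease, was lower at -2.18 ± 0.77 (adjusted p = 0.0284) on few counts, and 4 of 11 alternatives lost that call. Agr2, a disulfide isomerase needed for mucin, stood at 118, 168, 125, 149 and 174 against 36.7, 25.8, 33.3, 31.3 and 109, without overlap (1.67 ± 0.22, adjusted p = 1.42e-07), in 66 and 22 Lgr5 wells. The trefoil factor gene Tff3 was at 0.97 ± 0.25 (adjusted p = 0.00253), lost in 6 of 17 alternatives, while Muc2, the goblet mucin itself, gave 1 and 3 UMIs in the Lgr5 wells of the arms. Whether such wells held a secretory cell, free RNA of one or a cell with both programmes was not tested.

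Genes of the M cell route were measured before any RANKL. Tnfrsf11a, the gene of RANK (chromosome 1, 105780718 to 105847981, plus strand), stood at 47.9, 24, 68.9, 56 and 41.5 in Lgr5 wells against 38.2, 51.7, 44, 28.5 and 84.7, with overlapping groups and opposite orders on different plates (0.29 ± 0.27, adjusted p = 0.46). Onecut2, the target of CSRM617 (chromosome 18, 64340020 to 64400987, plus strand), was lower in the Lgr5 wells of all 5 plates, at 291, 204, 289, 288 and 323 against 478, 297, 502, 489 and 479.7. The overlap came from RANKL plate 2, and the log2 difference was -0.72 ± 0.12 (adjusted p = 1.18e-05). It passed in each arm taken alone, at -0.72 ± 0.13 in the RANKL arm (adjusted p = 5.04e-05) and -0.71 ± 0.20 in the CSRM617 arm (adjusted p = 0.00983), the second lost in 4 of 12 alternatives. Chuk, which encodes the kinase IKKα of the pathway below RANK, was lower at -0.67 ± 0.14 (adjusted p = 2.53e-04), a call lost under both ways of thinning. The RANK signalling and Onecut2 list had 2 of 9 genes lower, these 2, and none higher, with a median of 0.18. The M cell list had 2 of 8 higher and 3 lower, with a median of -0.12. The protease inhibitor gene Serpinb1a and the lectin gene Clec2h were lower at -1.39 ± 0.14 (adjusted p = 5.79e-10) and -2.54 ± 0.28 (adjusted p = 2.61e-09), as was the chemokine gene Ccl20 by -1.46 ± 0.32 (adjusted p = 4.80e-04), whose call was lost with the rule on thinned counts. The chemokine gene Ccl9 was higher by 2.42 ± 0.75 (adjusted p = 0.012) on few UMIs, 16 of them in 3 wells of the CSRM617 arm, a call lost under DESeq2 and without CSRM617 plate 2. Spib, the transcription factor that M cells require, gave no UMI in any day 0 well. The Notch list had 1 of 5 tested genes higher and none lower (median 0.01). Its called gene, the receptor gene Notch2, passed at 1.01 ± 0.30 (adjusted p = 0.00911) but not under DESeq2 or without RANKL plate 3. Hes1 missed the threshold at 0.29 ± 0.13 (adjusted p = 0.077) and passed only without RANKL plate 2 (0.39, adjusted p = 0.0145). The BMP and Id list had 1 of 9 tested genes higher and 1 lower (median -0.06). Its called genes were Bmp2 and Id2, with opposite signs. Id1 had no settled direction at 0.10 ± 0.29 (adjusted p = 0.839).

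Markers of tuft, enteroendocrine and non-epithelial cells were at or near 0 in Lgr5 wells. Dclk1 (tuft cells) and Chga (enteroendocrine cells) gave no UMI in 316 wells, which allows a share of cells with a UMI of up to 0.949%. No gene of the tuft, enteroendocrine, MHC class II or non-epithelial lists reached the level needed for a test. The summed tuft list lay between 0 and 17.3 CPM in the Lgr5 wells of the plates and between 0 and 9.17 in the other wells, and the enteroendocrine list between 0 and 14.5 against 0 and 88.7. The non-epithelial list summed to 2.22 at most in Lgr5 wells, although the CSRM617 table holds only 1 of its 15 genes. That table also lacks some of the other lists and holds 9 of 12 tuft, 7 of 14 enteroendocrine and 3 of 7 MHC class II genes.

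The low-Fabp1 part of the rule was then held equal by comparing Lgr5 wells with the 176 and 175 wells that had no Lgr5 UMI and fewer than 5 Fabp1 UMIs. Fabp1 still differed between them, at 75.9 and 46.1 CPM (before TMM) in Lgr5 wells and 147 and 156 in the others. Of 5688 genes tested, 694 (12.2%) passed, with 264 (4.64%) higher and 430 (7.56%) lower in Lgr5 wells, and the median of all genes was 0.02. Without RANKL plate 1 or RANKL plate 3, 405 or 316 genes passed. The stem cell list had 12 of 14 higher with a median of 0.97, the S phase list 14 of 15 with 1.04, and the G2/M list 8 of 14 with 0.68. Enterocyte genes were lower in 11 of 13 cases with a median of -1.52 and xenobiotic genes in 10 of 12 with -1.17. Wnt targets were higher in 3 of 11 cases with a median of 0.43, and interferon genes lower in 3 of 9 with -0.53. Olfm4 differed by 1.50 ± 0.13 (adjusted p = 8.40e-13), Slc12a2 by 0.92 ± 0.10 (adjusted p = 1.32e-09) and Mcm5 by 1.24 ± 0.19 (adjusted p = 5.12e-06). Axin2 differed by 1.13 ± 0.21 (adjusted p = 6.78e-05), a call lost when wells were thinned before summing. The DNA repair gene Rad54l, at 1.79 ± 0.42 (adjusted p = 0.00203), was among the 5 largest rises that passed at an average log2 CPM of at least 5. Sis and Alpi remained lower at -1.79 ± 0.12 (adjusted p = 5.27e-16) and -1.82 ± 0.15 (adjusted p = 2.60e-13). Itln1 differed by 1.24 ± 0.13 (adjusted p = 6.25e-10), Erbb3 by -1.15 ± 0.22 (adjusted p = 1.68e-04) and Krt8 by -0.78 ± 0.13 (adjusted p = 1.45e-05). Onecut2 differed by -0.66 ± 0.12 (adjusted p = 1.12e-04), and thinning before summing ended that call.

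Among the genes with the largest falls in this comparison were repeat-like gene models such as Gm10800, at -2.69 ± 0.16 (adjusted p = 2.25e-17). Wells with over 5% of their UMIs in 11 such models numbered 1 of 197 and 6 of 119 among Lgr5 wells, against 6 of 176 and 30 of 175 among the wells free of Lgr5 and low in Fabp1, where the share reached 93.4%. Without these wells 658 genes passed. Gm10800 was then at -0.35 (adjusted p = 0.0315), and the genes named in this comparison kept their direction and call.

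The arms share no plate, and their own contrasts against the other wells stand side by side. The RANKL arm had 1970 of 6445 genes called (30.6%) and the CSRM617 arm 482 of 4734 (10.2%), 158 higher (3.34%) and 324 lower (6.84%), against 5 higher and 66 lower under DESeq2. The RANKL count was 934 without plate 1 and 710 without plate 3. Of the 1606 genes called in the RANKL arm and tested in the other, 1460 (90.9%) had the same direction there and 422 also passed there in that direction, while 1 passed in the opposite direction. Over all 4631 genes tested in both arms, 72.9% had the same direction. Olfm4 was at 2.20 ± 0.14 (adjusted p = 3.56e-14) and 1.64 ± 0.12 (adjusted p = 4.41e-19), and Slc12a2 at 1.47 ± 0.12 (adjusted p = 1.51e-11) and 1.01 ± 0.11 (adjusted p = 1.03e-11). The stem cell list had 13 of 14 genes higher (median 1.47) in the RANKL arm and 7 of 12 (median 0.96) in the CSRM617 arm, and the S phase list 15 of 15 (1.80) and 10 of 14 (1.08). Some lists had calls in the RANKL arm only, but the arms' tests were not equally able to call genes. In simulated data they recovered 78% of 2-fold changes in the RANKL arm and 38% in the CSRM617 arm. The interaction test described below called no gene of these lists. Claudins were called lower in 4 of 4 cases there (median -1.12) and in none of 3 in the CSRM617 arm (-0.32). For ER stress genes it was 4 of 11 (-0.27) and none of 11 (-0.14). For MHC class I genes it was 3 of 4 (-0.43) and none of 3 (-0.36), and for interferon genes 10 of 12 and none of 1. Itln1 was at 1.93 ± 0.15 (adjusted p = 5.58e-12) and 1.13 ± 0.23 (adjusted p = 1.84e-04), the second of which was lost under DESeq2 and was -0.10, not called, with the rule on thinned counts.

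The difference between the arms' contrasts was itself tested as an interaction. At an adjusted p of 0.05, 1 of 6494 genes (0.0154%) passed in edgeR and 0 in DESeq2, and 433 genes had an unadjusted p under 0.05. That gene was Cyp2c66, a cytochrome P450 of the Cyp2c family on chromosome 19 (39113898 to 39187072, plus strand, GRCm38). It stood at 339, 156, 228, 33.6 and 74.6 in Lgr5 wells against 1419, 1137, 1525, 1172 and 834 in the other wells. The contrast was -2.42 ± 0.14 in the RANKL arm and -4.49 ± 0.26 in the CSRM617 arm, and the difference between them was -2.05 ± 0.37 (adjusted p = 0.0262). This call was lost in 10 of 17 alternatives, with adjusted p from 5.3e-07 to 0.999. In simulated data of this size the interaction test recovered 27% of 2-fold and 76% of 4-fold differences, so smaller differences between arms were mostly not detectable.

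**Figure D3:**
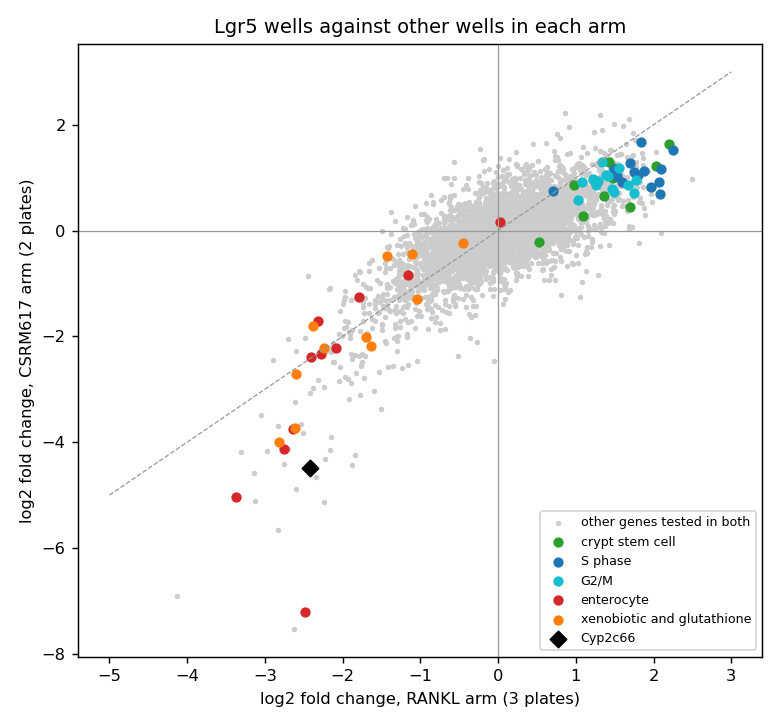
Log2 difference between Lgr5 wells and other wells in the RANKL arm (x axis, 3 plates) against the CSRM617 arm (y axis, 2 plates) for the 4631 genes tested in both, with 5 lists in colour, Cyp2c66 as a diamond and a dashed line of equality. Of all these genes 72.9% share a direction, and stem cell and cell cycle genes lie mostly at upper right and enterocyte and xenobiotic genes at lower left; the lowest points on the y axis are genes with few or no UMIs in the Lgr5 wells of the CSRM617 arm, whose fitted values are no measure of size.

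Lgr5 wells of the CSRM617 arm were then compared directly with those of the RANKL arm, 2 plates against 3. Of 4972 genes tested, 280 (5.63%) passed, 35 (0.704%) higher and 245 (4.93%) lower in the CSRM617 arm, with an all-gene median of 0.02. Without CSRM617 plate 1, 113 passed. No stem cell gene of 14 (median 0.05) and no S phase gene of 15 (median -0.18) passed. G2/M genes were higher in 2 of 14 cases with none lower (median 0.60). Goblet genes were higher in 2 of 4 (median 1.01) and immediate early genes in 3 of 12 (median 0.40), also with none lower. The largest rises under the naming rule were Hepacam2 and the repeat-like gene models Gm10722, Gm10800, Gm10801 and Gm21738. Such models held 1.33% of the UMIs of Lgr5 wells in the CSRM617 arm and 0.188% in the RANKL arm. Without wells rich in them 261 genes passed, 31 higher and 230 lower. Olfm4 differed by 0.64 ± 0.26 (adjusted p = 0.184), which passed only with the rule on thinned counts (1.24, adjusted p = 0.0023), and Onecut2 by 0.13 ± 0.25 (adjusted p = 0.869). Enterocyte genes were lower in 5 of 10 cases, Sis by -3.44 ± 0.33 (adjusted p = 7.43e-08) and Alpi by -2.69 ± 0.40 (adjusted p = 4.72e-05); the other wells were also lower in Sis, at 1047 and 919 CPM in the CSRM617 plates against 3849 to 4417 in the RANKL plates. Lyz1 was higher by 2.13 ± 0.43 (adjusted p = 0.00187), a call lost under DESeq2, and Itln1 lower at -1.06 ± 0.27 (adjusted p = 0.0133), a call lost in 3 of 18 alternatives, among them without CSRM617 plate 1. Interferon genes were lower in 4 of 5 cases. Hspa8, a constitutive chaperone of nearly all cells, gave 183 UMIs in the Lgr5 wells of the RANKL arm and 0 in those of the CSRM617 arm, and 206 and 5 in the other wells. The small GTPase gene Arf4 gave 613 and 4 in Lgr5 wells, and 1071 and 8 in the others. Of the 245 lower genes, 129 had 10 or fewer UMIs in the Lgr5 wells of the CSRM617 arm, and 73 were among 88 genes nearly missing from that table on later days as well. Without those 88 genes, 184 passed, 30 higher and 154 lower. Arm, table, plates and depth cannot be told apart in this comparison.

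Among low-Fabp1 wells the levels of several genes ran with the number of Lgr5 UMIs, a description in which deeper wells also have more chance of a second UMI. Median depths in the RANKL arm were 4653.5, 4578, 4925 and 4761.5 UMIs for 0, 1, 2 and 3 or more Lgr5 UMIs, and 2405, 2676.5, 3089.5 and 3277 UMIs in the CSRM617 arm. Here levels are CPM without TMM. Axin2 went from 69.9 through 121 and 170.3 to 237 in the RANKL arm and from 82 through 112 and 210.1 to 409 in the CSRM617 arm. Olfm4 went from 460.4 through 1259.9 and 1079 to 2331 and from 885 through 1685 and 2243 to 3791, so that the class with 3 or more was the highest in both arms. Smoc2 went from 309.7 through 501 and 592 to 752 and from 338 through 549.9 and 630.2 to 768. Sis went the other way, from 2152 through 981 and 580 to 255 and from 239.7 through 88.7 and 58.8 to 0, where the last class is 25 wells without a Sis UMI. Onecut2 dropped between 0 and 1 Lgr5 UMIs and fell less beyond, from 465 through 321 and 312 to 270 and from 412 through 319 and 319 to 297. The 95% counting intervals of the last 3 Onecut2 classes overlapped in both arms. These intervals leave out the spread between wells and plates, and their overlap does not show equal levels. Within single plates the classes were small, and Olfm4 with 2 Lgr5 UMIs was below Olfm4 with 1 on RANKL plate 3 and CSRM617 plate 1.

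Lgr5 wells also differed among themselves in cell cycle RNA. Each well was thinned to 1000 UMIs and classed by whether it then held 3 or more UMIs of the S phase list and of the G2/M list. In the RANKL arm 31.0% of Lgr5 wells had both, 20.8% S phase alone, 18.3% G2/M alone and 29.9% (59 of 197) neither. In the CSRM617 arm the shares were 28.6%, 15.97%, 24.4% and 31.1% (37 of 119). Of the other wells, 77.8% and 62.8% had neither. The share with neither was lower in Lgr5 wells on all 5 plates, at 29.2%, 8.33%, 33.7%, 24.6% and 40.0% against 72.9%, 71.4%, 83.2%, 65.5% and 60.3%. The classes are ranges of a score: 35 and 20 Lgr5 wells of the RANKL arm held exactly 2 and exactly 3 S phase UMIs, and 20 and 5 of the CSRM617 arm. On CSRM617 plate 2 the most abundant gene, CT010467.1, took a larger share of the UMIs than on the other plates. Its median share per well was 27.4% in Lgr5 wells and 27.3% in the other wells, against 2.72% and 2.94% on CSRM617 plate 1. Its effect on the cell cycle classes was not tested.

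**Figure D4:**
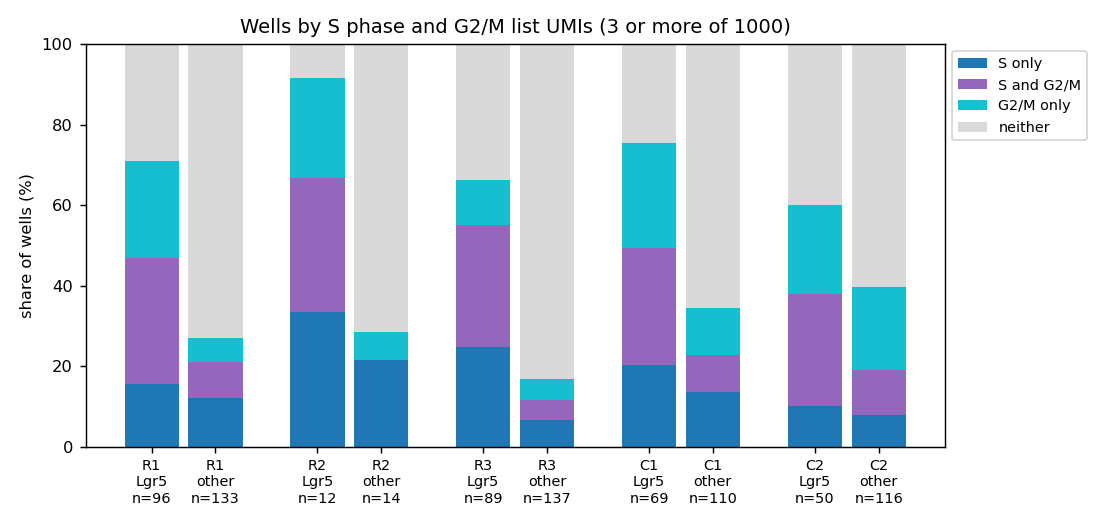
Share of Lgr5 wells and of other wells on each day 0 plate (percent, RANKL plates R1 to R3 and CSRM617 plates C1 and C2, n wells below each bar) with 3 or more UMIs of the S phase list, the G2/M list, both or neither, after thinning each well to 1000 UMIs. The grey part, neither list, covers 8.33% to 40.0% of Lgr5 wells and 60.3% to 83.2% of other wells.

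The Lgr5 wells with neither list differed from those with S phase or G2/M RNA in other genes, and not in the same way in the arms. These are descriptions without a test, since the same wells were split by their own counts. In the RANKL arm the summed stem cell list was lower in wells with neither, 4314 against 7321 CPM, and the enterocyte list was higher, 4875 against 1484. Olfm4 was at 717 against 1819 there. In the CSRM617 arm the stem cell list was at 8174 against 6996 and the enterocyte list at 1042 against 726, although the enterocyte order turned on plate 2 (824 against 872). Olfm4, a gene of the stem cell list, was higher there in wells with neither, 3359 against 1948, on both plates. Other genes of that list were not higher over both plates: Slc12a2 was at 1892 against 2074, Smoc2 at 607 against 630 and the sparse Ascl2 at 30.4 against 55.6. By plate, Slc12a2 was at 1200 against 2109 and 2510 against 2000, and Smoc2 at 729 against 712 and 498 against 454. Paneth and goblet lists were higher in wells with neither of the CSRM617 arm, 2549 against 478 and 2155 against 470, in both of its plates. A few wells carry much of these lists: of the UMIs in all Lgr5 wells of the CSRM617 arm, the 5 highest wells held 96.7% for Lyz1, 84.6% for Mmp7 and 95.5% for Spink4, a Kazal-type peptidase inhibitor gene of goblet cells. The Paneth list of the RANKL arm was at 936 against 1117, with plates 1 and 3 in opposite order, and RANKL plate 2 had only 1 well with neither.

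**Figure D5:**
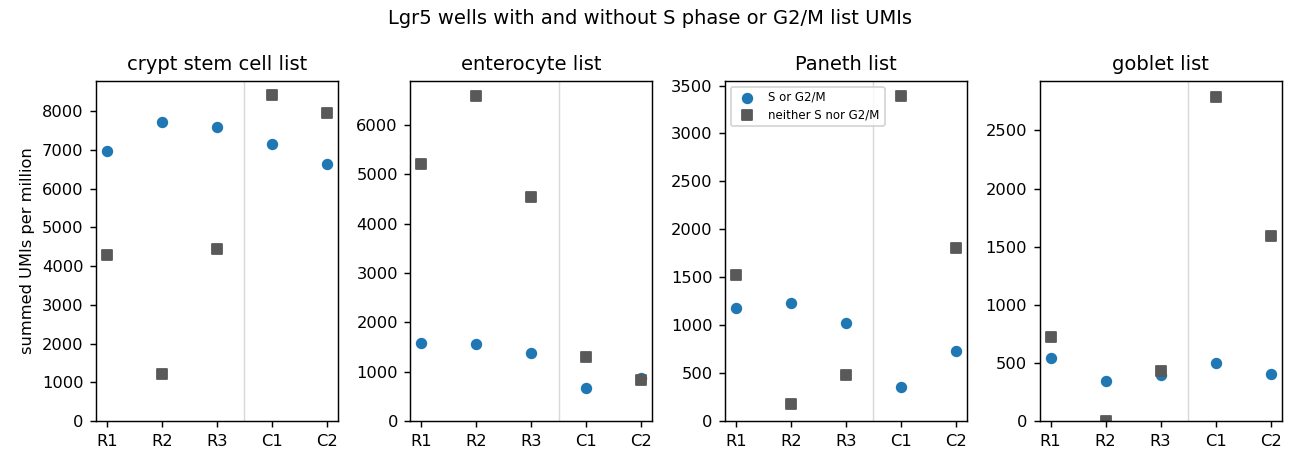
Summed levels of 4 lists (CPM of the summed wells) in Lgr5 wells with S phase or G2/M list UMIs (circles) and with neither (squares) on each day 0 plate, RANKL plates R1 to R3 left of the line and CSRM617 plates C1 and C2 right of it. On the RANKL plates the squares lie below the circles for the stem cell list and above them for the enterocyte list, and on the CSRM617 plates they lie above the circles for the Paneth and goblet lists; the square of R2 is a single well.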

How the data were processed

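Single cells of the 5 day 0 plates were measured with a modified CEL-Seq2 protocol that counts 3′ ends of mRNA with UMIs, per the labels. The authors deposited raw UMI counts, 1 table per arm with a gene in each row and a well in each column. Kallisto, bustools, Seurat 3.1.5 and GRCm38 are named in the submitters' processing notes, with no version of the first 2. There were 21099 genes in the RANKL table and 9257 in that of the CSRM617 arm, of which 9230 are in both; the tables hold no mitochondrial or spike-in genes. Of their symbols 20538 and 9142 were found in GENCODE M21, which gave the coordinates. Doublets were not called in these wells of 1 sorted cell each. No kept day 0 well had over 3 times the median UMIs of its plate, a bound that a well with 2 cells need not pass.

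Wells under 1000 UMIs were left out, and counts of the rest were summed per plate and class. The sums were tested with edgeR 4.0.16 (TMM, filterByExpr, quasi-likelihood test, plate as a block, R 4.3.3) with Benjamini-Hochberg adjustment at 0.05, and DESeq2 1.42.0 was an alternative. A log2 difference is Lgr5 wells minus the compared wells, with its SE. Lgr5 wells of the arms were compared without a block. A check of pairing found that the Lgr5 wells and other wells of a plate, which are the same plate, deviated together (correlations from 0.309 to 0.435 over 1654 genes). Plates of an arm differed by more than counting noise, at 2.58 to 23.4 chi-square units per gene. Intervals and floors cover counting error only. On simulated counts the comparison of Lgr5 wells with other wells over both arms, on 6048 genes, recovered 70% of 2-fold and 98% of 4-fold changes. In the simulations the changed genes were drawn only from those above a minimum level. Plates were given no differences of their own, so the recovery does not cover sparse genes or plate differences.

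The wells, the gene lists and the tests were chosen with earlier results of these data known. Genes are named by a rule: the largest rises and falls that passed at an average log2 CPM of at least 5, the up to 4 called genes per list that differed most, and a set named whatever its values. Mcm6, Mcm7, Hells, Prom1, Spink4 and Arf4 were chosen after their values were seen. Alternatives were another scaling, tool, count filter, thinning, thresholds of the rule, the most abundant gene and each plate left out. Wells rich in repeat-like gene models and genes nearly missing from the CSRM617 table were left out as alternatives chosen after seeing the data.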

Additional observations from a re-analysis of the deposited data

Results flagged for a closer look

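One gene differed between the arms in how far Lgr5 wells lay from the other wells. For Cyp2c66 the log2 difference of the CSRM617 arm minus that of the RANKL arm was -2.05 ± 0.37 (SE, edgeR's interaction test with Benjamini-Hochberg adjustment, adjusted p = 0.0262, over 5 plates). Lgr5 wells were below the other wells on all 5 plates, and the Lgr5 wells of the CSRM617 plates had the lowest levels of this gene. The call was lost without RANKL plate 1, without RANKL plate 2 and without CSRM617 plate 1, and also under DESeq2, without the plate block, with Fabp1 under 2 UMIs, without the most abundant gene, without wells rich in repeat-like models and under both ways of thinning. Arm, table, plates and depth cannot be told apart.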

How the results depend on the processing

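Of 97 single-gene results checked, 61 kept their direction and call in every alternative that could be run, 31 lost a call in at least 1, 4 gained one and 3 changed sign in at least 1. The sign changed for Mmp7 (-0.61), Id1 (-0.15) and, in the CSRM617 arm, Itln1 (-0.10) with the rule on thinned counts, and for Id1 with a RANKL plate left out (-0.10 without plate 1 and -0.03 without plate 3, in a range up to 0.34 over the 5 plates left out in turn).

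Counts of called genes moved with the settings; the cause was not tested. Under DESeq2 they were 664 in the RANKL arm, 71 in the CSRM617 arm, 1196 over both, 269 against Lgr5-free wells, 140 between the arms' Lgr5 wells and 0 for the interaction. With wells thinned before summing they were 466, 165, 575, 191, 95 and 0, and with the rule on thinned counts 557, 152, 679, 395, 133 and 9, in the same order; fewer UMIs or fewer Lgr5 wells entered these fits. Without the replicate block (plate), 1144, 160, 375 and 0 genes passed in the RANKL arm, the CSRM617 arm, against Lgr5-free wells and for the interaction. Over both arms 1454 passed without it. With 2 or more Lgr5 UMIs 134 passed between the arms' Lgr5 wells and 7 for the interaction, and with Fabp1 under 2 UMIs 444 passed against Lgr5-free wells and 0 for the interaction. The interaction gave 17 genes without a count filter, 4 with 2000 UMIs per well, 0 without the most abundant gene and 0 without repeat-rich wells. Between the arms' Lgr5 wells 184 passed without the genes nearly missing from the CSRM617 table.

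Leaving out 1 plate gave 710 to 2378 genes in the RANKL arm, 1163 to 2216 over both arms, 316 to 788 against Lgr5-free wells, 113 to 297 between the arms' Lgr5 wells and 0 to 9 for the interaction. The counts fell by over 1.5 times without RANKL plate 1 (934, 1215 and 405 in the first 3 of these) or RANKL plate 3 (710, 1163 and 316), and between the arms' Lgr5 wells without CSRM617 plate 1 (113, where, as in the interaction, the lone CSRM617 plate is assumed to vary like the others). The CSRM617 arm alone has 2 plates and allowed no such fit. For the arms' Lgr5 wells the labels share replicate numbers that the data did not pair (correlation -0.0761), and a fit with the replicate block gave 235 calls. The mean share of Lgr5 wells per plate was 42.5% and 34.3%, and it was 16.99% and 16.1% thinned, 21.8% and 17.4% with 2 or more Lgr5 UMIs and 38.2% with Fabp1 under 2 UMIs in the RANKL arm. At these depths 2-fold differences between the arms were mostly not detectable.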
